A study of Arabidopsis thaliana with 42 samples.

Results

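The PYR/PYL proteins are the soluble receptors of abscisic acid (ABA), and transcripts of 10 of their genes, PYR1 and PYL1 to PYL9, were followed in Arabidopsis thaliana seedlings after nuclear entry of the leaf polarity factors REVOLUTA (REV) or KANADI1 (KAN1). The members were taken by locus, 1 probe set for each gene, out of 22810 probe sets on the ATH1 array. All except PYL3, 9 genes, were among the 16129 probe sets that were tested. PYL10 to PYL13 had no probe set of their own among those used here (0 of 4).

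RNA of whole seedlings, 7 days old and grown in liquid culture, was measured on 42 arrays in 14 groups of 3. All seedlings were of the Columbia ecotype. GR-REV seedlings express a fusion of the hormone-binding part of the glucocorticoid receptor with REV, an HD-ZIP III transcription factor of the upper leaf side. KAN1-GR seedlings express KAN1, a GARP-family factor of the lower leaf side, joined to that same receptor part. Both fusions were driven by the cauliflower mosaic virus 35S promoter, which is active in most cells, and 1 line of each was used, so a transgene's effect and that of its insertion cannot be told apart. Dexamethasone (DEX, 50 µM), which lets such a fusion enter the nucleus, was given for 0, 30 or 60 min, and for 120 min also in GR-REV and its wild type. Wild-type seedlings received DEX as well. GR-REV was grown with 1 set of wild-type seedlings (day 1) and KAN1-GR with another (day 2), and every sample came from its own flask. Day and line therefore cannot be told apart except through the wild type of each day.

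ABA is the hormone of drought and salt stress, seed dormancy and stomatal closure. When a PYR/PYL receptor binds ABA, it docks on a clade A protein phosphatase 2C (PP2C) and blocks its active site. The phosphatase then no longer holds back the SnRK2 kinases, which phosphorylate ABF transcription factors and ion channels. The receptors fall into 3 subfamilies. PYR1, PYL1, PYL2 and PYL3 form dimers in the absence of the hormone, PYL4, PYL5 and PYL6 make up the second subfamily, and PYL7, PYL8 and PYL9 belong to the third, whose members are mostly monomers.

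Values are on the log2 scale, and for each probe set 0 is the wild-type median before DEX (6 arrays). The level of one receptor therefore cannot be set against that of another, and the seedling tissue could not be checked by absolute marker levels. The REV probe set was higher by 4.10 ± 0.12 (SE) in GR-REV before DEX, and the KAN1 probe set by 9.02 ± 0.22 in KAN1-GR, as their labels have it. The GR-REV arrays at 0 min did not sit together: replicates 1 and 2 and the day 1 wild type had plastid psaA values between -4.23 and -4.21, whereas the lowest of all remaining arrays, replicate 3 of that group included, was 1.35. In whole seedlings, a change in RNA per cell and a change in the share of cells that hold the RNA cannot be told apart.

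Of the 9 tested receptor genes, PYL6 had the largest response in both lines at each time. PYL6 rose in GR-REV and fell in KAN1-GR within 30 min, PYL4 and PYL5 fell in KAN1-GR, PYR1 rose in GR-REV at 60 and 120 min, PYL1 fell in KAN1-GR at 60 min, and the probe set of PYL7 rose in KAN1-GR at 60 min. A response is the change of a line from its 0 min after subtraction of the same change in that day's wild type, tested with limma at an adjusted p under 0.05. In GR-REV 1 of 9 tested receptor genes rose at 30 min, where 1.38% of all tested probe sets passed in either direction (0.862% upwards). At 60 min 2 of 9 rose, against 4.36% of all tested (1.75% upwards), and at 120 min 2 of 9 rose, against 3.84% (1.18% upwards). No receptor gene fell in GR-REV by this test. In KAN1-GR 3 of 9 fell at 30 min, against 2.4% of all tested (1.71% downwards). At 60 min 4 of 9 fell and 1 rose, against 6.84% (3.96% downwards and 2.88% upwards). The median response of the 9 genes was 0.15, 0.17 and 0.04 in GR-REV at 30, 60 and 120 min and -0.13 and -0.33 in KAN1-GR at 30 and 60 min, where the medians of all tested probe sets lay between -0.05 and 0.02. Lack of overlap between 3 arrays of a line and 3 of its time-matched wild type was common, with 11.3% to 17.1% of all tested probe sets above and 13.8% to 19.5% below in the 7 pairs of groups.

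**Figure D1:**
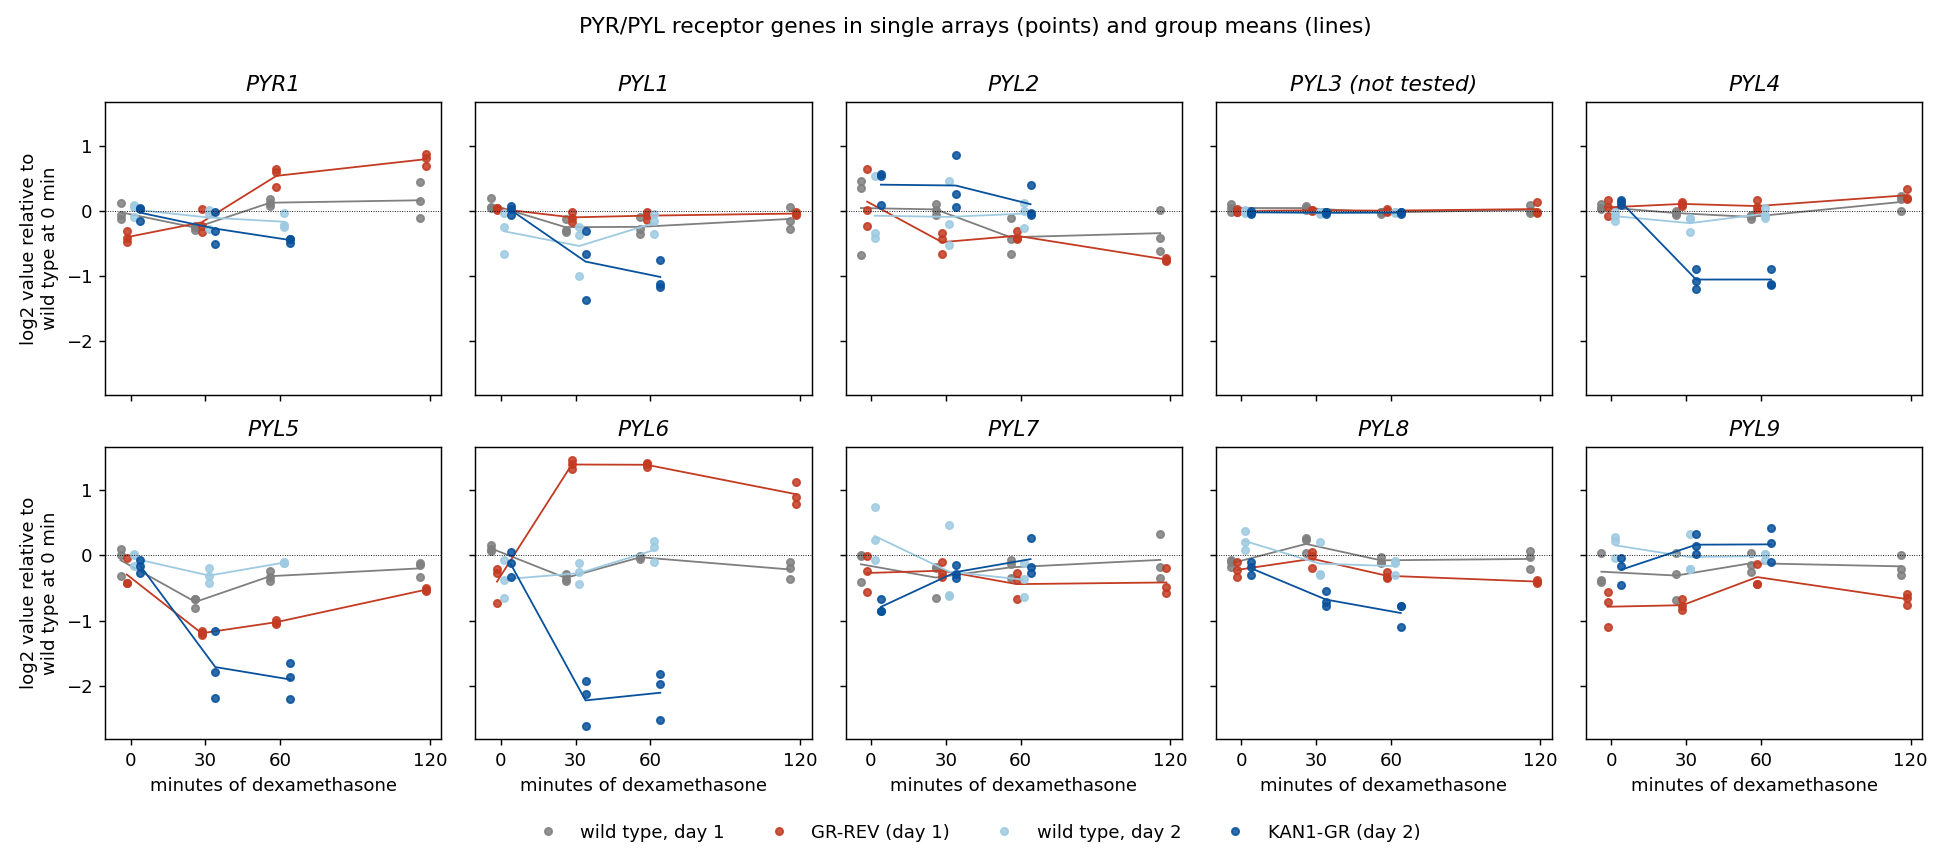
Log2 values of the 10 receptor genes relative to the wild-type median at 0 min (y axis) against minutes of DEX (x axis), with 1 point per array, lines through the means of 3 arrays and a colour for each line and day. PYL6 parts upwards in GR-REV (0.78 to 1.46 after DEX) and downwards in KAN1-GR (-2.62 to -1.83), while PYL4 and PYL5 drop in KAN1-GR and PYL3 stays between -0.05 and 0.13.

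PYL6 (AT2G40330), a receptor also known as a partner of the jasmonate factor MYC2, moved in both lines and in opposite directions. In GR-REV its values were -0.20, -0.28 and -0.73 at 0 min and 1.40, 1.46 and 1.32 at 30 min. At 60 min they were 1.41, 1.35 and 1.42, and at 120 min 0.90, 0.78 and 1.13. Every GR-REV array after DEX lay above all 21 wild-type arrays, which ranged from -0.66 to 0.22. In KAN1-GR the 0 min values of -0.33, -0.12 and 0.06 fell within the wild-type range. At 30 min they were -2.14, -2.62 and -1.92, and at 60 min -2.52, -1.97 and -1.83, all below every array of the other lines.

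The PYL6 response in GR-REV was 2.25 ± 0.23 (log2, SE, n = 3 in each of 4 groups) at 30 min, a 4.77-fold rise with a limma adjusted p of 1.55e-07, with rank 5 by p among the tested probe sets. It was 1.93 ± 0.23 at 60 min (3.82-fold, limma adjusted p = 1.36e-06) and 1.67 ± 0.23 at 120 min (3.18-fold, limma adjusted p = 2.48e-05). The response at 120 min less that at 30 min was -0.59 (95% interval -1.06 to -0.11), which did not pass the adjusted test (limma adjusted p = 0.301). No receptor gene passed in this comparison of times, against 1.54% of all tested probe sets. PYL6 was already lower in GR-REV than in wild type at 0 min, and set directly against time-matched wild type it differed by 1.74, 1.42 and 1.16. In those direct comparisons 9.05%, 12.8% and 15.4% of all tested probe sets differed. In KAN1-GR the response was -2.19 ± 0.23 at 30 min, a 4.55-fold fall, and -2.42 ± 0.23 at 60 min, a 5.37-fold fall (limma adjusted p = 1.58e-07 and 6.49e-09). The 60 min response less that at 30 min was -0.24 ± 0.23 (limma adjusted p = 0.942), and no receptor gene passed in this comparison either, against 0.347% of all tested probe sets. Each PYL6 call in a response held when any single array was left out, with responses of 2.09 to 2.35 in GR-REV at 30 min and of -2.57 to -2.22 in KAN1-GR at 60 min.

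PYL4 (AT2G38310), whose product has been linked to jasmonate-dependent metabolism, fell in KAN1-GR and kept near wild type in GR-REV. Its KAN1-GR values were 0.16, 0.08 and 0.13 at 0 min, -0.89, -1.07 and -1.21 at 30 min and -0.90, -1.14 and -1.13 at 60 min. The 6 arrays after DEX lay below all wild-type arrays (-0.33 to 0.22) and all GR-REV arrays. The response was -1.07 ± 0.12 at 30 min (2.11-fold lower, limma adjusted p = 4.76e-07) and -1.22 ± 0.12 at 60 min (2.33-fold lower, limma adjusted p = 1.46e-08). In GR-REV the response was 0.15, 0.17 and 0.11 at the 3 times, each ± 0.12, and none passed (smallest limma adjusted p = 0.55). At 30 and 60 min the GR-REV arrays nevertheless did not overlap the wild type of their time, with 0.07 to 0.13 against -0.07 to -0.01 at 30 min. At these times 13.7% and 13.2% of all tested probe sets lay above wild type in this way.

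PYL5 (AT5G05440), known for raising drought tolerance when overexpressed in Arabidopsis, fell in KAN1-GR at both times. Its KAN1-GR values were -0.26, -0.06 and -0.16 at 0 min, -1.80, -2.18 and -1.16 at 30 min and -2.20, -1.65 and -1.87 at 60 min. All 6 arrays after DEX were below the lowest wild-type value of -0.81, with replicate 3 at 30 min the least reduced. The response was -1.29 ± 0.22 at 30 min (2.45-fold lower, limma adjusted p = 0.000253) and -1.68 ± 0.22 at 60 min (3.21-fold lower, limma adjusted p = 1.6e-06). PYL5 was also the receptor gene that moved in wild type: it fell by 0.45 ± 0.11 at 30 min over both days (limma adjusted p = 0.0121), the 1 of 9 called where 3.87% of all tested probe sets were (1.85% lower). That change was -0.64 ± 0.15 on day 1 (limma adjusted p = 0.00616), where 9.93% of all tested probe sets changed. On day 2, where 0.601% changed, it was -0.26 ± 0.15 and did not pass (limma adjusted p = 0.672). The difference between the days, -0.38 ± 0.22, did not pass (limma adjusted p = 0.355, with 3.45% of all tested probe sets called). The reference of day 1 was the wild type at 0 min with the low psaA values given above, whose part in this fall was not tested.

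PYL5 did not follow PYL6 in GR-REV. It read -1.19, -1.22 and -1.17 at 30 min, -1.05, -1.04 and -0.99 at 60 min and -0.55, -0.53 and -0.50 at 120 min in that line, from -0.42, -0.04 and -0.42 at 0 min. The arrays of each time after DEX lay below the wild type of that time, in which 30 min values were -0.81 to -0.66. As a response, with the wild-type fall subtracted, the values were -0.26, -0.49 and -0.11, each ± 0.22, and none passed (smallest limma adjusted p = 0.254). Set directly against time-matched wild type PYL5 differed by -0.48 ± 0.15 at 30 min and -0.71 ± 0.15 at 60 min (limma adjusted p = 0.042 and 0.00123). In those comparisons 9.05% and 12.8% of all tested probe sets differed. Against the line's own 0 min, with no wild-type fall subtracted, it differed by -0.90 ± 0.15 and -0.73 ± 0.15 at these times (limma adjusted p = 9.74e-05 and 0.00087). The share of all tested probe sets called against that reference is not given here. That reference includes replicates 1 and 2 with the low psaA values given above, whose part was not tested. The PYL5 call in GR-REV thus depends on the reference.

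**Figure D2:**
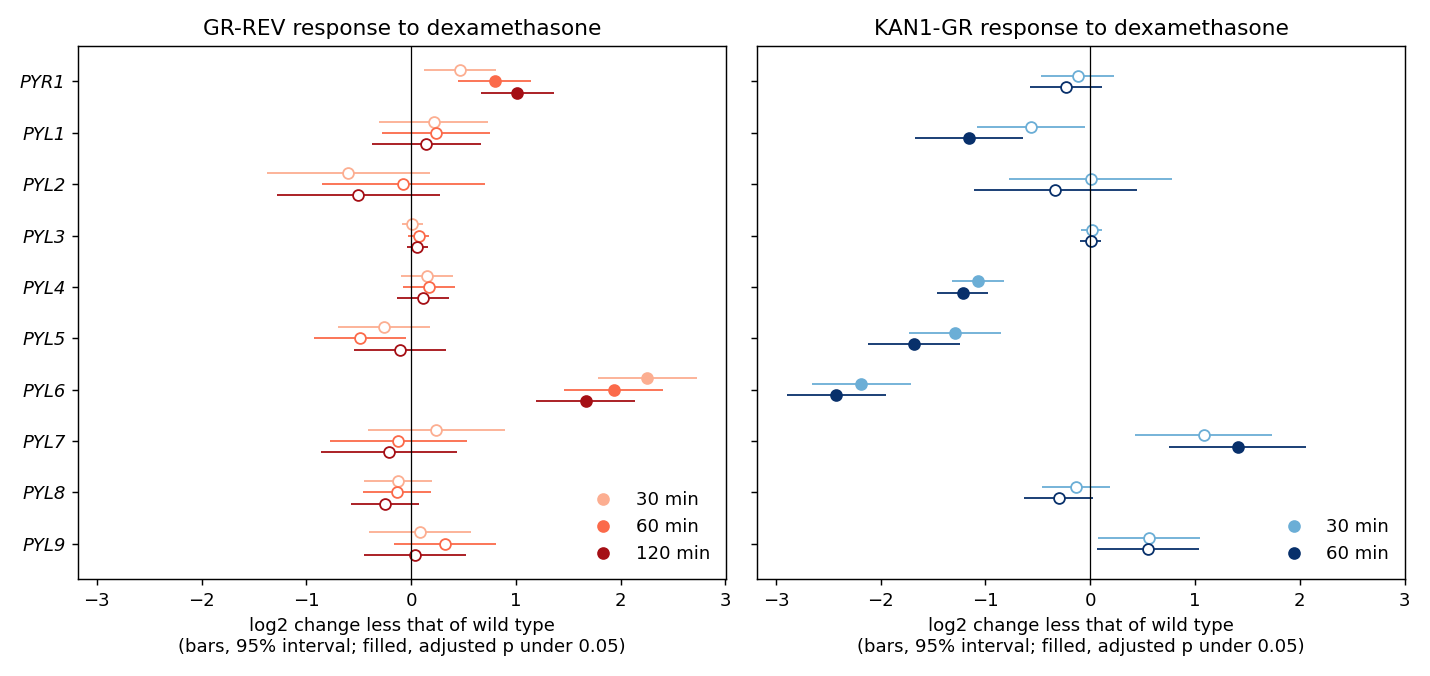
Responses of the 10 receptor genes (rows) in log2 (x axis), GR-REV on the left at 30, 60 and 120 min and KAN1-GR on the right at 30 and 60 min, where bars are 95% intervals and filled points passed limma's adjusted p of 0.05. PYL6 reaches 2.25 in GR-REV and -2.42 in KAN1-GR, PYL4 and PYL5 are below 0 on the right, and PYL3, which was not tested, sits at 0.

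PYR1 (AT4G17870), the receptor first found through the synthetic agonist pyrabactin, was called higher in GR-REV at 60 and 120 min. In that line it read -0.31, -0.42 and -0.49 at 0 min, -0.24, 0.02 and -0.32 at 30 min, 0.37, 0.59 and 0.64 at 60 min and 0.87, 0.81 and 0.69 at 120 min. At 60 and 120 min all GR-REV arrays were above the wild type of their time, which reached 0.18 and 0.44, while at 30 min they overlapped. The response was 0.47 ± 0.17 at 30 min (limma adjusted p = 0.241), 0.80 ± 0.17 at 60 min (1.74-fold, limma adjusted p = 0.00361) and 1.02 ± 0.17 at 120 min (2.02-fold, limma adjusted p = 0.000355). The step from 30 to 60 min, 0.33 ± 0.17, did not pass (limma adjusted p = 0.679). The step from 30 to 120 min, 0.55 ± 0.17, did not pass either (limma adjusted p = 0.115), and it passed with array weights (limma adjusted p = 0.0202) or without wild-type day 1 replicate 2 at 120 min or GR-REV replicate 2 at 30 min. Because PYR1 started lower in GR-REV at 0 min, its direct difference from time-matched wild type was 0.41 at 60 min and 0.63 at 120 min (limma adjusted p = 0.0185 and 0.000256). In KAN1-GR its response was -0.12 ± 0.17 and -0.23 ± 0.17, neither called, with values of -0.43, -0.49 and -0.43 at 60 min, below the wild type of that time (-0.25 to -0.04). Set against its own 0 min PYR1 in KAN1-GR differed by -0.42 ± 0.12 at 60 min (limma adjusted p = 0.0164), where 12.3% of all tested probe sets did.

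PYL1 (AT5G46790), a dimeric receptor close to PYR1, fell in KAN1-GR at 60 min. Its KAN1-GR values were 0.08, 0.03 and -0.07 at 0 min, -1.37, -0.67 and -0.30 at 30 min and -1.17, -0.76 and -1.13 at 60 min. The 30 min arrays spread over more than 1 log2 unit and overlapped wild type of that time (-1.0, -0.37 and -0.25), while those at 60 min did not (-0.36 to -0.06). The response was -0.57 ± 0.25 at 30 min (limma adjusted p = 0.349) and -1.16 ± 0.25 at 60 min (2.23-fold lower, limma adjusted p = 0.0028). At 30 min PYL1 passed against the line's own 0 min (-0.79 ± 0.18, limma adjusted p = 0.00388), where 6.41% of all tested probe sets did. Set directly against wild type of that time it did not pass (-0.24 ± 0.18, limma adjusted p = 0.424). With array weights the 30 min response passed (-0.60, limma adjusted p = 0.00589). The 60 min call was lost when the day 2 arrays alone were fitted (same change, limma adjusted p = 0.0598), and it held without any single array (largest limma adjusted p = 0.0173). In GR-REV PYL1 stayed between -0.18 and 0.05 in all 12 arrays, with responses of 0.15 to 0.23 that were not called.

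PYL2 (AT2G26040), another dimeric receptor, passed the test in none of the responses, and its spread was the widest of the family, with a residual SD of 0.35. The GR-REV arrays at 120 min, -0.77, -0.72 and -0.76, were below the wild type of that time (-0.63 to 0.01). The response there was -0.50 ± 0.38 (95% interval -1.28 to 0.28, limma adjusted p = 0.587), an interval that includes changes larger than 2-fold. Set against its own 0 min PYL2 in GR-REV at 120 min differed by -0.89 ± 0.27 and passed (limma adjusted p = 0.0267), where 12% of all tested probe sets did. PYL3 (AT1G73000), the fourth dimeric receptor, had no p-value in the authors' deposited table and was not tested. It varied from -0.05 to 0.13 over all 42 arrays, and its residual SD of 0.039 was near the median of 0.0466 for the probe sets not tested, against 0.186 for those tested.

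PYL7 (AT4G01026) was called higher in the KAN1-GR response at 60 min, by 1.41 ± 0.32 (2.65-fold, limma adjusted p = 0.00405). Its KAN1-GR values were -0.85, -0.67 and -0.85 at 0 min, -0.14, -0.28 and -0.34 at 30 min and -0.26, 0.27 and -0.18 at 60 min, and the wild type of day 2 went from -0.08, 0.23 and 0.74 to -0.37, -0.11 and -0.64. The 60 min arrays of the line and of wild type overlapped, and the 0 min arrays did not. Set directly against wild type at 60 min, where 18% of all tested probe sets differed, PYL7 stood at 0.32 ± 0.23 (limma adjusted p = 0.379). Set against the line's own 0 min it rose by 0.73 ± 0.23 (limma adjusted p = 0.0275), where 12.3% of all tested probe sets changed. At 30 min the response was 1.08 ± 0.32 and was not called (limma adjusted p = 0.0684).

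PYL8 (AT5G53160), a receptor with a known part in lateral root growth and listed as RCAR3 by RefSeq, declined in KAN1-GR without passing as a response. Its values there were -0.10, -0.18 and -0.31 at 0 min, -0.77, -0.71 and -0.55 at 30 min and -0.78, -0.77 and -1.10 at 60 min. All 6 arrays after DEX lay below every wild-type array (lowest -0.30). The responses were -0.13 ± 0.16 and -0.30 ± 0.16 (limma adjusted p = 0.843 and 0.324), since the wild type of day 2 changed from 0.22 ± 0.15 (SD, n = 3) at 0 min to -0.13 ± 0.28 and -0.17 ± 0.12. Set directly against time-matched wild type PYL8 differed by -0.55 ± 0.11 at 30 min and -0.72 ± 0.11 at 60 min (limma adjusted p = 0.000834 and 1.32e-05), where 14% and 18% of all tested probe sets differed. Against the line's own 0 min it differed by -0.48 and -0.69 (limma adjusted p = 0.00578 and 3.4e-05), where 6.41% and 12.3% did. In GR-REV PYL8 reached -0.40, -0.38 and -0.43 at 120 min, below wild type of that time, with a response of -0.25 ± 0.16 (limma adjusted p = 0.497) and a direct difference from wild type of -0.35 ± 0.11 (limma adjusted p = 0.0326).

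PYL9 (AT1G01360), listed as RCAR1 by RefSeq and known for promoting leaf senescence under drought, showed no called response. In GR-REV it was low at 0 min (-0.56, -0.71 and -1.09), at 30 min (-0.77, -0.68 and -0.84) and at 120 min (-0.59, -0.66 and -0.76). At 60 min it read -0.44, -0.43 and -0.13. The response at 120 min was 0.04 ± 0.24. Set directly against time-matched wild type PYL9 at 120 min differed by -0.50 ± 0.17 and passed (limma adjusted p = 0.0391, with 15.4% of all tested probe sets called). In KAN1-GR the responses of 0.56 ± 0.24 and 0.55 ± 0.24 were not called (limma adjusted p = 0.304 and 0.191). The KAN1-GR arrays at 60 min, -0.11, 0.43 and 0.19, overlapped wild type of that time (-0.07 to 0.03).

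Before DEX 3 of 9 tested receptor genes were lower in GR-REV than in the wild type of day 1, where 15.9% of all tested probe sets differed (8.08% lower). PYR1 differed by -0.38 ± 0.12, PYL6 by -0.51 ± 0.16 and PYL9 by -0.54 ± 0.17 (limma adjusted p = 0.0261, 0.0297 and 0.0261). The 3 GR-REV arrays lay below the 3 wild-type arrays for each of these genes, as for 14.7% of all tested probe sets. After quantile normalisation none of the 3 passed (limma adjusted p = 0.131, 0.123 and 0.226), and none passed without GR-REV replicate 3 or without wild-type day 1 replicate 3 either. In these arrays 7 of 8 touch and wound genes were higher, with a mean per array of 0.61 to 1.30 in GR-REV against -0.47 to 0.04 in wild type. Called lower, as the receptor genes were, were 4 of 4 tested leaf photosynthesis markers (median -0.41), 2 of 6 root markers and 1 of 3 tested guard cell markers. The part of these genes in the receptor differences was not tested.

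In KAN1-GR 2 of 9 were lower before DEX, against 10.7% of all tested probe sets (5.78% lower). PYL7 differed by -1.09 ± 0.23, a 2.13-fold lower value (limma adjusted p = 0.00214), and PYL8 by -0.42 ± 0.11 (limma adjusted p = 0.0165). For both genes the 3 KAN1-GR arrays lay below the 3 of the day 2 wild type, which read -0.08, 0.23 and 0.74 for PYL7 and 0.08, 0.21 and 0.37 for PYL8. The arrays of PYL9 also lay below wild type and those of PYL4 above, neither called, where 17.8% of all tested probe sets lay below and 17.1% above. The PYL8 call was lost in a fit of the day 2 arrays alone (limma adjusted p = 0.0717) and without wild-type replicate 6 or KAN1-GR replicate 3 (limma adjusted p = 0.125 and 0.0922). The touch and wound genes went the other way in this line, with 3 of 8 lower and means of -0.62 to -0.48 against -0.03 to 0.20, and their part was not tested.

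In wild type over both days PYL5 was the receptor gene called at 30 min, as given above. At 60 min no receptor gene passed, against 2.33% of all tested probe sets, and at 120 min none did, against 5.13%. On day 2 alone wild type at 60 min stood at -0.67 ± 0.23 for PYL7 and -0.39 ± 0.11 for PYL8 against its 0 min, and neither passed (limma adjusted p = 0.179 and 0.107). The 2 wild-type sets differed at 0 min in PYL6, 0.48 ± 0.16 higher on day 1, and PYL8, 0.34 ± 0.11 lower on day 1 (limma adjusted p = 0.0348 and 0.028), where 22.9% of all tested probe sets differed. The PYL6 call was lost in 5 of 6 fits that left out 1 array (largest limma adjusted p = 0.225) and the PYL8 call in 4 of 6 (largest limma adjusted p = 0.156).

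The responses of the 2 lines were then set against each other, GR-REV less KAN1-GR at matched times. At 30 min 2 of 9 receptor genes differed, against 2.25% of all tested probe sets (1.56% higher in GR-REV): PYL6 by 4.44 ± 0.33 (21.7-fold, limma adjusted p = 7.43e-11), ranked second among all tested, and PYL4 by 1.22 ± 0.17 (2.33-fold, limma adjusted p = 2.16e-05). At 60 min 6 of 9 differed, against 6.36% (3.08% higher and 3.28% lower in GR-REV). The 5 higher in GR-REV were PYL6 by 4.36 ± 0.33 (20.5-fold), PYL4 by 1.39 ± 0.17, PYL1 by 1.39 ± 0.36, PYL5 by 1.20 ± 0.31 and PYR1 by 1.03 ± 0.24 (largest limma adjusted p = 0.0136). PYL7 was lower by -1.53 ± 0.45 (limma adjusted p = 0.035). PYL6 is thus the receptor gene that was called with opposite signs in the 2 lines. For PYL4, PYL5 and PYL1 the difference came with a called fall in the KAN1-GR response and no called response in GR-REV. For PYR1 it came with a called rise in the GR-REV response and no called response in KAN1-GR. Against a single reference, however, PYL5 was called lower in GR-REV at 60 min, from its own 0 min and from wild type. PYR1 was likewise called lower in KAN1-GR at 60 min against its own 0 min. The PYR1 call was lost after quantile normalisation (0.72, limma adjusted p = 0.0774). The PYL7 call was lost when all probe sets were tested (limma adjusted p = 0.0565) and in 11 of 24 fits that left out 1 array. Line and day of growth cannot be told apart here beyond the wild type subtracted for each day.

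**Figure D3:**
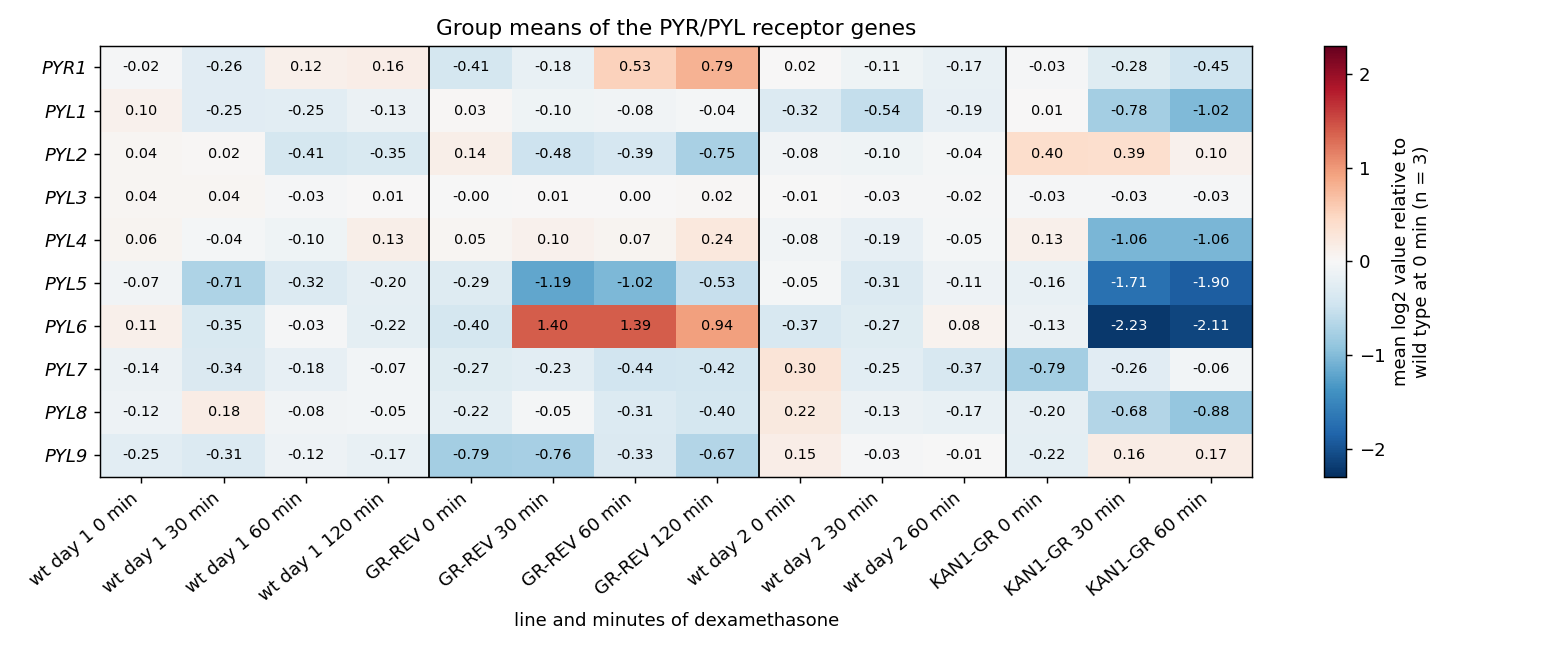
Mean log2 value of each receptor gene (rows) in the 14 groups (columns), each the mean of 3 arrays relative to the wild-type median at 0 min, with red above and blue below 0. The largest mean is 1.40 (PYL6, GR-REV at 30 min) and the lowest -2.23 (PYL6, KAN1-GR at 30 min), and the columns of KAN1-GR after DEX hold the low values of PYL1, PYL4, PYL5, PYL6 and PYL8.

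Ordered by group mean, PYL6 fell into separated steps. KAN1-GR at 30 and 60 min (-2.23 ± 0.36 and -2.11 ± 0.37, SD, n = 3) overlapped each other at the bottom. The 9 groups of wild type or of a line before DEX followed, from GR-REV at 0 min (-0.40 ± 0.29) to the day 1 wild type at 0 min (0.11 ± 0.05), each overlapping its neighbour in the order. GR-REV at 120 min (0.94 ± 0.18) stood above them, and GR-REV at 60 and 30 min (1.39 ± 0.03 and 1.40 ± 0.07), which overlapped, stood above that. A break means here that the arrays of a group did not overlap those of the next group in the order. PYL4 had 1 break in its order, between KAN1-GR after DEX (-1.06 ± 0.16 and -1.06 ± 0.13) and the day 2 wild type at 30 min (-0.19 ± 0.12). PYL5 had breaks above GR-REV at 30 min (-1.19 ± 0.03), GR-REV at 60 min (-1.02 ± 0.03), the day 1 wild type at 30 min (-0.71 ± 0.08) and GR-REV at 120 min (-0.53 ± 0.02), while the lowest 3 groups overlapped in turn. PYL8 had its 3 breaks above KAN1-GR at 60 min (-0.88 ± 0.19), KAN1-GR at 30 min (-0.68 ± 0.11) and GR-REV at 120 min (-0.40 ± 0.03). The gap above KAN1-GR at 60 min was as narrow as 6e-04. PYR1 had 1 break, between GR-REV at 120 min (0.79 ± 0.10) at the top and GR-REV at 60 min (0.53 ± 0.14), which overlapped the day 1 wild type at 120 min (0.16 ± 0.28). PYL1 had no break anywhere in its order. In PYL7 the break was above KAN1-GR at 0 min (-0.79 ± 0.10), with a gap of 0.0064, and in PYL2 above GR-REV at 120 min (-0.75 ± 0.03). In PYL9 it lay between GR-REV at 120 min (-0.67 ± 0.08) and GR-REV at 60 min, with GR-REV at 30 and 0 min below. That break did not separate all arrays. Replicate 3 of the day 1 wild type at 30 min read -0.69, within the range of GR-REV at 120 min (-0.76 to -0.59).

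The receptor genes were compared in pattern over the 14 group means, which share wild-type arrays and days, so the correlations describe these groups. PYL1 and PYL4 ran most alike (Pearson r = 0.928), followed by PYL4 and PYL6 (0.859), PYL1 and PYL6 (0.775) and PYL4 and PYL5 (0.753). PYL5 and PYL6 had an r of 0.407, and PYR1 and PYL2 the most negative one, -0.716. Among 15137 other tested probe sets of 1 locus, those most like PYL6 were LBD38 (r = 0.965), a regulator of nitrogen-dependent anthocyanin synthesis, CIL (AT4G25990, 0.948), the zinc-finger gene ZFP8 (0.942), AT4G40080 (0.938) and the ERF-family gene ESE3 (0.933). In that order, these 5 responded at 30 min by 0.55, 0.76, 1.24, 2.35 and 1.94 in GR-REV. In KAN1-GR at 30 min they responded by -0.95, -1.89, -2.26, -1.40 and -0.79. Most like PYL4 were AT5G39080 (0.964) and AT5G46780 (0.961), and most like PYL1 was AGF2 (0.930), with PYL4 next. PYL5 was closest to AT4G39780 (0.954) and AT2G46620 (0.950), PYL8 to AT4G33666 (0.966) and AT1G01490 (0.930), and PYL9 to AT1G74840 (0.960) and AT1G47480 (0.933). The nearest to PYR1 were AT3G27390 (0.912) and PDK1 (0.912), and to PYL2 GASA5 (0.910), a gibberellin-regulated peptide gene, and HIPP21 (0.888). PYL7 had the loosest match, GBF1 (0.789) and AT2G25200 (0.755).

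The receptor genes lie on chromosomes 1, 2, 4 and 5. The nearest tested gene on each side of the 9 tested ones, with 0 to 3 loci between, was examined for joint changes. No such neighbour was called in GR-REV at 30 min, where 1.38% of all tested probe sets were. In KAN1-GR none was called besides AT5G46780 and AT2G38290, where 2.4% of all tested probe sets were called at 30 min and 6.84% at 60 min. AT5G46780, on one side of PYL1 and also among the best matches of PYL4, responded in KAN1-GR by -2.63 at 30 min and by -2.16 at 60 min (limma adjusted p = 4.48e-05 and 0.000292), and was singled out after its values were seen. On the other side of PYL1, AT5G46800 responded by 0.21 and -0.25. AT2G38290, beside PYL4, responded by -0.90 at 60 min (limma adjusted p = 0.000822). The measured neighbours of PYL6, AT2G40316 and AT2G40360, responded by -0.17 to 0.03 in GR-REV at 30 min and in KAN1-GR at 30 and 60 min.

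The partners of the receptors were read from lists of the pathway. Of the clade A PP2C genes, which encode the phosphatases that the receptors inhibit, 6 of 9 were tested. None was called in the 3 GR-REV responses (medians 0.11, 0.11 and 0.12), against 1.38%, 4.36% and 3.84% of all tested probe sets. In KAN1-GR 2 of 6 rose and 1 fell at 30 min, against 2.4% of all tested, and 2 of 6 rose at 60 min, against 6.84% (medians 0.19 and 0.19). HAI1, a phosphatase gene strongly induced by ABA, rose by 3.05 ± 0.63 and 4.29 ± 0.63 (limma adjusted p = 0.0032 and 1.53e-05), from a value 1.35 below wild type at 0 min. ABI2, one of the first phosphatases found through ABA-insensitive mutants, rose by 0.82 ± 0.15 and 2.09 ± 0.15 (limma adjusted p = 0.00105 and 1.7e-11). ABI1, its close relative, fell at 30 min by 0.73 ± 0.20 (limma adjusted p = 0.0453) and read -0.60 ± 0.20 at 60 min (limma adjusted p = 0.0723).

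The same shares of all tested probe sets are the background of the counts that follow, 1.38% to 4.36% in GR-REV and 2.4% and 6.84% in KAN1-GR. Downstream of the phosphatases, 1 of 3 ABA-activated SnRK2 genes was called: SnRK2.3 rose in KAN1-GR at 60 min by 0.67 ± 0.20 (limma adjusted p = 0.0377), with SnRK2.2 at 0.12 and OST1, the guard cell kinase, at 0.38. None of the 4 tested ABA transcription factor genes (of 7 listed) passed in a response, nor did the 5 tested ABA synthesis genes (of 10), whose responses lay between -0.70 and 0.63. Of 5 genes for ABA inactivation and release, CYP707A4, an ABA 8'-hydroxylase gene that was 3.27 higher in GR-REV before DEX, fell there at all 3 times, by 1.71 at 60 min and 1.73 at 120 min (largest limma adjusted p = 0.0391, at 30 min). CYP707A4 lies in a stretch of chromosome 3, AT3G16320 to AT3G19590, taken from earlier results of these data, in which 196 of 221 tested probe sets were higher in GR-REV than in wild type before DEX (median 1.13), and no receptor gene lies there. Its relative CYP707A2 fell in KAN1-GR at 60 min by 1.32 ± 0.42 (limma adjusted p = 0.0491). Of 2 tested transport genes (of 3), ABCG25, an ABA exporter, rose in GR-REV at 120 min by 0.92 ± 0.19 (limma adjusted p = 0.00278). Of 10 tested ABA-induced genes (of 14), RD29A, a dehydration marker, fell in GR-REV at the 3 times by 1.52, 1.78 and 1.32, and ATHB12, a homeobox gene induced by ABA, rose in KAN1-GR at 60 min by 2.57 ± 0.36 (limma adjusted p = 5.59e-06). The median of that list was -0.24, -0.61 and -0.39 in GR-REV and 0.16 and 0.29 in KAN1-GR.

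**Figure D4:**
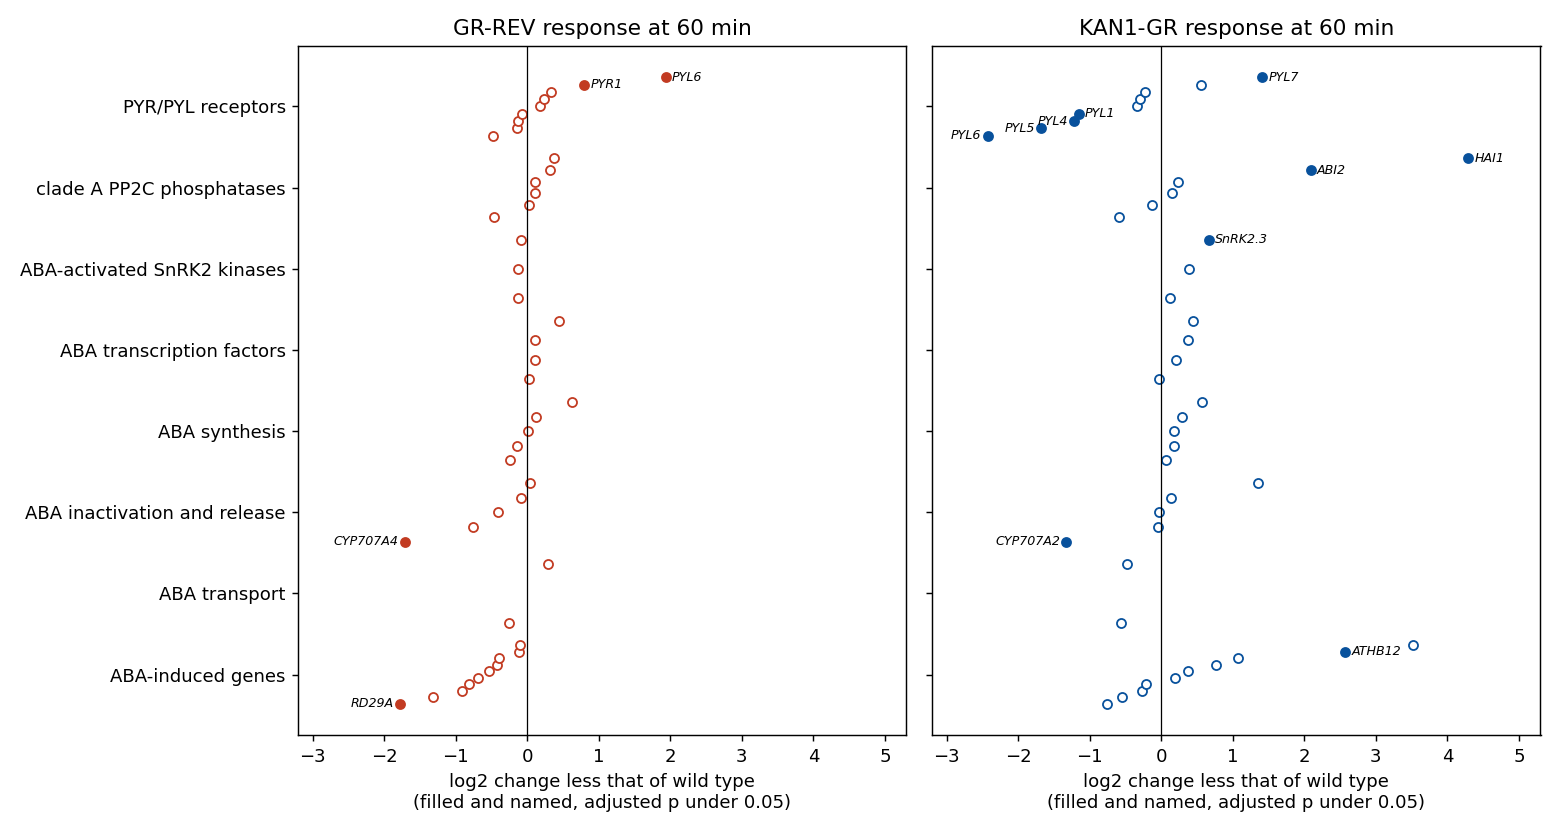
Responses at 60 min in log2 (x axis) of the tested genes of 8 ABA lists (rows), GR-REV on the left and KAN1-GR on the right, 1 point per gene, filled and named where limma's adjusted p was under 0.05. In KAN1-GR 4 receptor genes lie at -1.16 or lower while HAI1 and ABI2 stand at 4.29 and 2.09, and in GR-REV PYL6 is the highest point at 1.93.

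Among the cell type lists, 1 of 3 tested guard cell markers (of 6 listed) was called in KAN1-GR at 60 min. KAT1, a guard cell potassium channel gene, fell by 1.26 ± 0.39 (limma adjusted p = 0.0437), FAMA responded by 0.08 and MYB60 by -0.84 without passing, and the mean per array was -0.77 to -0.40 against 0.08 to 0.17 in wild type. At 30 min, when PYL4, PYL5 and PYL6 had fallen, none of the 3 was called and the means were -0.28 to -0.04 against 0.07 to 0.29. Root markers (0 of 6 called) and leaf photosynthesis markers (0 of 4 called) had no called member in either KAN1-GR response. Of 4 tested leaf photosynthesis markers (of 6 listed), 0, 2 and 1 were called higher at 30, 60 and 120 min in GR-REV. The medians of these responses were 0.44, 0.53 and 0.44. PYL6 was called higher at each of these times, and PYR1 at 60 and 120 min. PSBO1, a subunit gene of photosystem II, rose by 0.48 ± 0.11 at 60 min (limma adjusted p = 0.00475). The mean of the 4 per array was -0.37 to -0.24 in GR-REV at 0 min and 0.08 to 0.25 at 60 min, against -0.06 to 0.21 and -0.13 to 0.13 in wild type. No guard cell or root marker was called in a GR-REV response. The part of these cell types in the receptor responses was not tested.

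In the authors' deposited table, the genotype-by-time p-value of a 2-way analysis of variance was 4.5e-06 for PYL6 in GR-REV and 9.09e-06 in KAN1-GR. In the authors' deposited table PYR1 had 0.000853 in GR-REV and 0.24 in KAN1-GR. PYL4 and PYL5 had 2.01e-07 and 0.000474 in KAN1-GR in the authors' deposited table and 0.691 and 0.115 in GR-REV. The other 5 receptor genes with a value had p-values above 0.08 in both lines in the authors' deposited table, PYL1 among them (0.17 in KAN1-GR).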

How the data were processed

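Whole-seedling RNA was hybridised to ATH1 arrays. The deposited values are log2 values that the authors made with GCRMA, per the submitters' processing notes; its version is not given in the sources used here. Base 2 follows from GCRMA. Each probe set has a wild-type median of 0 before DEX (6 arrays), as checked on the values. A second table deposited by the authors, with identical values, gave p-values of a 2-way analysis of variance, a unit other than expression. Probe sets with such a p-value, less controls, were tested (16129). Receptor genes were named by the table's locus column. RefSeq names and locus order came from assembly TAIR10.1.

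The means of the 14 groups were fitted in 1 linear model over the 42 arrays with limma 3.58.1 in R 4.3.3 (28 residual and 3.92 prior degrees of freedom). P-values were two-sided and adjusted by Benjamini-Hochberg over all tested probe sets, with a threshold of 0.05. For wild-type changes at 30 and 60 min the days were averaged. In simulated data for the KAN1-GR response at 60 min over 16129 probe sets, 66% of changes of 1 log2 unit and 97% of changes of 2 were recovered, with 8 false calls. There 200 probe sets were changed, and the noise was normal and independent between arrays and probe sets. These rates therefore need not hold for the measured arrays. The number of arrays limits the precision.

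Same-numbered samples of different groups had a median correlation of deviations of 0.009 (GR-REV and day 1 wild type, 26 of 84 pairs over 0.1), so numbers were not taken to pair samples. Members and lists were chosen with earlier results of these data known. From each list, at most 4 genes with the smallest adjusted p in the responses are named. For likeness, the 5 probe sets nearest to PYL6 and the 2 nearest to each other member are named. Alternatives tried were quantile normalisation, median centring of each array, testing all probe sets, array weights, a 2-fold minimum and a replicate block. Fits with 1 day's arrays, with a single reference and without each array in turn were also tried.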

Additional observations from a re-analysis of the deposited data

Results flagged for a closer look

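Responses that differed between the lines by their own test are listed with the GR-REV response less that of KAN1-GR. At 30 min they were PYL6, by 4.44, and PYL4, by 1.22. At 60 min they were PYL6 (4.36), PYL4 (1.39), PYL1 (1.39), PYL5 (1.20) and PYR1 (1.03), and PYL7 with a difference of -1.53. The PYL6 values of the 2 lines lay on either side of wild type in all arrays after DEX.

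The wild-type response at 30 min differed between the days for 1 receptor gene. PYL8 changed by 0.30 ± 0.11 on day 1 and by -0.35 ± 0.11 on day 2, a difference of 0.64 ± 0.16 (limma adjusted p = 0.0193), where 3.45% of all tested probe sets differed. Neither day's change passed by itself.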

How the results depend on the processing

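The 29 called values of single receptor genes were refitted 622 times: 571 refits kept direction and call, 51 lost the call and none changed direction. With a replicate block the counts were 3 (GR-REV at 0 min), 2 (KAN1-GR at 0 min), 1, 2 and 2 (GR-REV at 30, 60 and 120 min), 3 and 5 (KAN1-GR at 30 and 60 min), as without it, and the block changed no other call. Counts of called receptor genes that moved by more than 1.5 times were as follows. GR-REV against wild type at 0 min (3) gave 0 after quantile normalisation, 1 with array weights and 0 with a 2-fold minimum. KAN1-GR at 0 min (2) gave 5, 5 and 1, and 1 with the arrays of its day. The wild types at 0 min (2) gave 4, 5 and 0. With array weights, KAN1-GR at 30 min (3) gave 7, wild type at 30 min (1) gave 3, the difference between lines at 30 min (2) gave 6 and GR-REV from 30 to 120 min (0) gave 1. The 2-fold minimum gave 1 for GR-REV at 60 min (2) and 0 for wild type at 30 min, as did day 2 alone. Set directly against time-matched wild type GR-REV gave 2 at 30 min (1) and 4 at 120 min (2). Those comparisons called 9.05% and 15.4% of all tested probe sets, where the responses called 1.38% and 3.84%. Against its own 0 min GR-REV gave 2 at 30 min, and KAN1-GR gave 5, where 6.41% of all tested were called. For quantile normalisation, array weights and GR-REV against its own 0 min, the share of all tested probe sets is not given here. Those counts therefore cannot be read as particular to the receptor genes. Leaving out 1 array gave 0 to 3 for GR-REV at 0 min, 1 to 2 for KAN1-GR at 0 min, 0 to 3 for the wild types at 0 min, 1 to 2 for wild type at 30 min and 0 to 1 for GR-REV from 30 to 120 min. The PYL9 value in GR-REV at 120 min turned from 0.04 to -0.50 when set directly against time-matched wild type, where it passed (limma adjusted p = 0.0391). The causes were not tested.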
